A study of Mus musculus with 4 samples.

Results

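The proteasome genes described here were chosen by gene symbol, as the rows of the table whose symbol begins with Psma to Psmg followed by a digit. Of 19504 genes measured, 50 matched, each through 1 row. Of these, Psmc3ip, which encodes a meiotic recombination partner, and Psme3ip1, which encodes a binding partner of a proteasome activator, share the name but are no subunits. They were set aside, which left 48 genes. These are 7 alpha and 6 beta subunits of the constitutive 20S core, 3 immunoproteasome subunits and 2 tissue-restricted core subunits. The 19S regulatory particle has 17, namely 6 ATPases and 3 other subunits of its base and 8 of its lid. Another 6 encode activators and an inhibitor, and 7 encode assembly factors, 4 for the core and 3 for the base. The constitutive subunit Psmb5 was not analysed here.

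The 4 samples were mouse ILC3s, type 3 innate lymphoid cells, which guard barrier tissues and secrete IL-22. They were sorted as lineage-negative, CD90-high and CD45-low. One sample came from circZbtb20-/- mice, which lack a circular RNA made from the Zbtb20 gene, and was set against circZbtb20+/+ ILC3s. Another came from Nr4a1-/- mice, which lack an orphan nuclear receptor, and was set against Nr4a1+/+ ILC3s. The labels name no tissue, strain, age or number of animals, nor how each allele was made. Each genotype has 1 Affymetrix array, so no value below has a replicate error and this small number of arrays sets the precision.

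The proteasome is the main protease of the cytosol and nucleus and degrades proteins tagged with ubiquitin. Its barrel-shaped 20S core has outer rings of alpha subunits, which form the gate, and inner rings of beta subunits, some of which carry the proteolytic sites. The 19S regulatory particle binds, deubiquitinates, unfolds and feeds in the substrate. In lymphocytes, and in other cells exposed to interferon-gamma, the catalytic beta subunits can be replaced by the immunoproteasome subunits, which changes the peptides offered to MHC class I.

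Values are the deposited log2 values and differences are log2 differences of a knockout from its own wild type. The size rule for a higher or lower gene was a difference of at least 2-fold, which is 1 on the log2 scale, with its higher value at or above the median of that array over all rows, between 4.34 and 4.51. Such a call has no test behind it. The difference between the wild types, Nr4a1 wild type minus circZbtb20 wild type, gives the background. No proteasome gene reached the ceiling of the table, 19.93. In sorted cells in bulk, fewer cells of a type and less RNA per cell cannot be told apart.

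The cell content of the arrays differed and was read before the results. On the Nr4a1 knockout array all 17 T cell markers measured were higher, with a median level of 15.60 in the Nr4a1 knockout and 5.93 in its wild type. Cd3e stood at 18.92 against 8.88 in the wild type, while Kit, an ILC3 marker, stood at 5.48 against 18.36. All 14 cell cycle genes were higher there too, with a median level of 9.48 in the knockout and 5.01 in the wild type. Of 15 ILC3 markers 12 were lower and 1 was higher, and their median level was 5.50 in the knockout and 15.05 in the wild type. Il22 was the exception, at the ceiling of 19.93 in the Nr4a1 knockout and in both wild types, Ltb was higher at 10.28 against 7.07, and Id2 was lower but still at 15.48 against 18.89. Most ILC3 markers and all T cell markers of this array thus go against its label as ILC3s. In the circZbtb20 knockout 8 of 15 ILC3 markers were higher and 6 lower, with a median level of 16.55 in the knockout and 15.06 in its wild type. Il17a stood at 15.79 there against 5.10 in the wild type. Epithelial markers were higher for 5 of 10 and lower for 1, and 4 of 9 macrophage and myeloid markers were lower. Of the pancreas acinar markers 9 of 10 were lower, with a median level of 4.36 in the knockout and 10.23 in the wild type. The Nr4a1 knockout too had 9 of 10 acinar markers lower, at a median level of 4.16 against 7.50 in its wild type, together with 9 of 10 epithelial and 8 of 9 macrophage and myeloid markers. NK cell and ILC1 markers were lower for 7 of 11 in the circZbtb20 knockout and 9 of 11 in the Nr4a1 knockout. Between the wild types, 9 of 10 acinar markers were lower and 8 of 10 epithelial markers higher in the Nr4a1 wild type. Among common reference genes, Actb differed by -3.06 and Gapdh by -1.24 in the circZbtb20 knockout, and in the Nr4a1 knockout Gapdh differed by 2.42 and Actb by at least 1.18, its knockout value being at the ceiling. Nr4a1, the targeted gene, stood at 11.63 in the Nr4a1 knockout and 18.11 in its wild type. The part of any of these markers or genes in the proteasome values was not tested.

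In the circZbtb20 knockout the genes of the 20S core were higher almost throughout, and those of the 19S particle mostly were not. Of 13 constitutive core subunits 12 were called higher and 0 lower (median difference 3.03). Of 17 subunits of the 19S particle 2 were higher and 3 lower, and their median was 0.49. Over all 48 genes, 44 of which passed the filter on low values, 21 were higher and 4 lower (median 0.87). The same rule called 27.3% of all genes past that filter higher and 19.4% lower in this comparison. The median over all genes was 0.04. Against the Nr4a1 wild type, 12 of the 13 core subunits and 7 of the 17 subunits of the 19S particle were higher in the circZbtb20 knockout. The rule called 26.4% of all genes past the filter higher there, and the second count thus depends on the wild type used. Actb and Gapdh were lower on this knockout array, as given above, and their part in these counts was not tested.

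**Figure D1:**
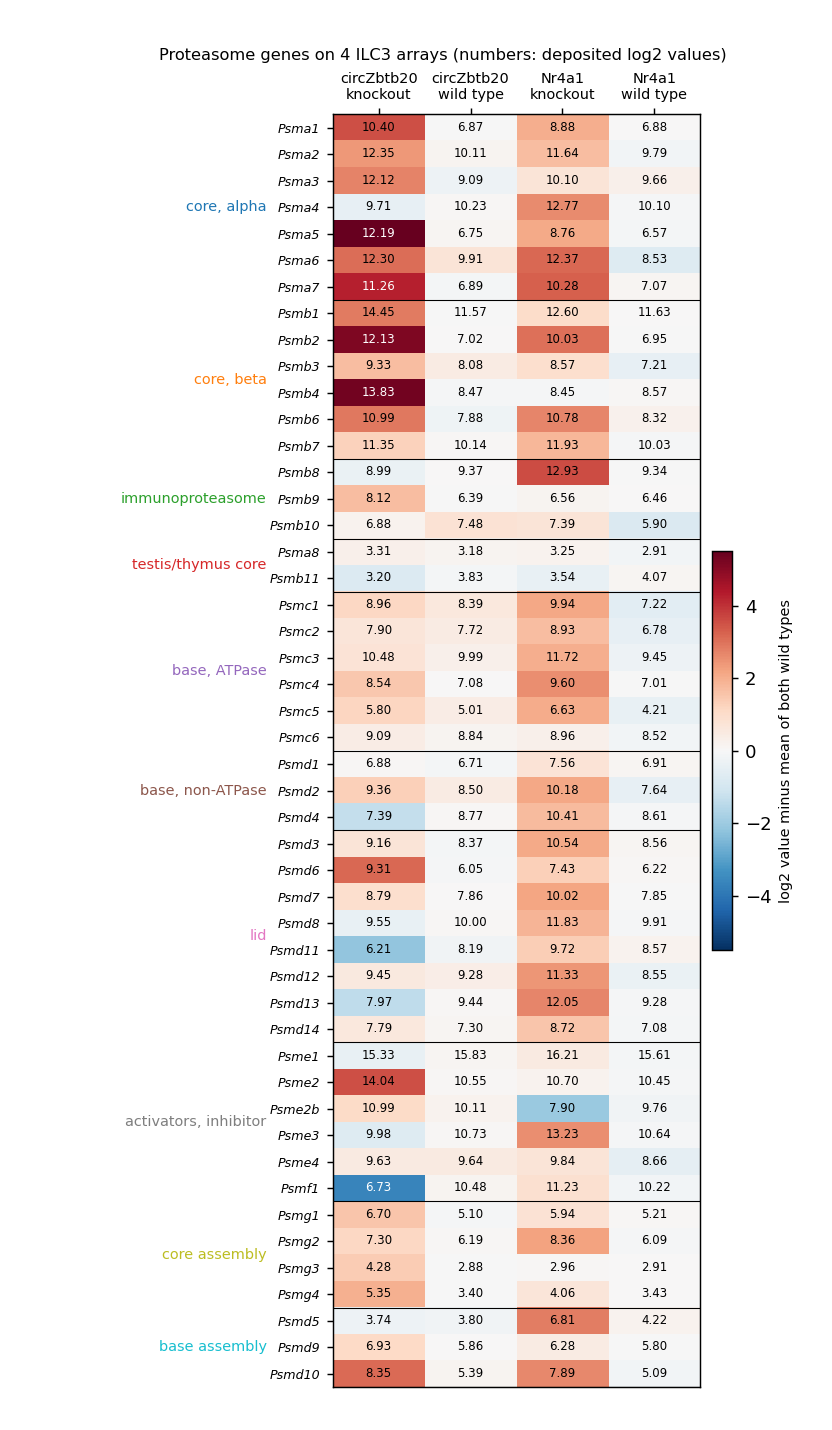
Deposited log2 values of 48 proteasome genes (rows, grouped by class) on the 4 arrays (columns), 1 array per genotype. Numbers are the values and colours give each value minus the mean of both wild types, so that the column of the circZbtb20 knockout is red over 12 of the 13 core subunits and the column of the Nr4a1 knockout over most of the core and the regulatory particle.

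Among the alpha subunits, which form the outer rings and the gate of the core, Psma5 had the highest difference. Psma5 stood at 12.19 in the circZbtb20 knockout and 6.75 in its wild type, and at 8.76 in the Nr4a1 knockout and 6.57 in its wild type. The wild types were thus close to each other, and the circZbtb20 knockout lay above both by more than 5 log2 units. Psma7 stood at 11.26 in the circZbtb20 knockout and 6.89 in its wild type, and at 10.28 in the Nr4a1 knockout and 7.07 in its wild type. Psma1 followed with 10.40 in the circZbtb20 knockout and 6.87 in its wild type, against 8.88 and 6.88 in the Nr4a1 knockout and its wild type. Both genes were therefore higher in each knockout than in either wild type.

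Psma3 stood at 12.12 in the circZbtb20 knockout and 9.09 in its wild type, a difference of 3.03, but differed by only 0.44 in the Nr4a1 knockout, at 10.10 against 9.66. Psma6 stood at 12.30 in the circZbtb20 knockout and 9.91 in its wild type, and at 12.37 in the Nr4a1 knockout and 8.53 in its wild type. Its difference of 3.84 in the Nr4a1 knockout was the highest of the 48 genes there, but the wild types themselves differed by -1.38, and against the circZbtb20 wild type it was 2.46. Psma2 was higher by 2.24 in the circZbtb20 knockout and by 1.85 in the Nr4a1 knockout. Psma4 was the exception of the core. It stood at 9.71 in the circZbtb20 knockout and 10.23 in its wild type (-0.52), and at 12.77 in the Nr4a1 knockout and 10.10 in its wild type, where it was 2.67 higher.

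The beta subunits make up the inner rings. Psmb4, a structural beta subunit without a proteolytic site, stood at 13.83 in the circZbtb20 knockout and 8.47 in its wild type, and at 8.45 in the Nr4a1 knockout and 8.57 in its wild type. It was thus 5.36 higher in the circZbtb20 knockout, and the other 3 arrays lay within 0.12 of each other. Psmb2, another structural subunit, stood at 12.13 and 7.02 in the circZbtb20 knockout and its wild type, and at 10.03 and 6.95 in the Nr4a1 knockout and its wild type. Psmb1 stood at 14.45 in the circZbtb20 knockout and 11.57 in its wild type, and its difference of 0.97 in the Nr4a1 knockout, 12.60 against 11.63, lay just under the 2-fold size. Psmb3 was higher by 1.25 in the circZbtb20 knockout and by 1.36 in the Nr4a1 knockout.

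The constitutive catalytic subunits measured were higher in both knockouts. Psmb6, which carries the caspase-like site, stood at 10.99 in the circZbtb20 knockout and 7.88 in its wild type (3.11), and at 10.78 in the Nr4a1 knockout and 8.32 in its wild type, where it was 2.46 higher. Psmb7, which carries the trypsin-like site, stood at 11.35 in the circZbtb20 knockout and 10.14 in its wild type (1.21), and at 11.93 in the Nr4a1 knockout and 10.03 in its wild type, where it was 1.90 higher. Psmb6 and Psmb7 were both above either wild type in each knockout.

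The 3 immunoproteasome subunits differed among themselves, 1 being called higher in the circZbtb20 knockout and 2 in the Nr4a1 knockout. Of all genes past the filter, 27.3% and 31.9% were called higher in these comparisons. Psmb8, the chymotrypsin-like subunit, stood at 8.99 in the circZbtb20 knockout and 9.37 in its wild type, and at 12.93 in the Nr4a1 knockout and 9.34 in its wild type. It was 3.59 higher in the Nr4a1 knockout and lay within 0.38 on the other 3 arrays. Psmb9, which replaces Psmb6, stood at 8.12 in the circZbtb20 knockout and 6.39 in its wild type, and at 6.56 in the Nr4a1 knockout and 6.46 in its wild type, so it was higher in the circZbtb20 knockout only by the size rule, by 1.73. Psmb10, which replaces Psmb7, stood at 6.88 and 7.48 in the circZbtb20 knockout and its wild type, and at 7.39 and 5.90 in the Nr4a1 knockout and its wild type. Its difference of 1.49 in the Nr4a1 knockout came with a wild type difference of -1.58, and against the circZbtb20 wild type it was -0.09. The median of the 3 genes was -0.38 in the circZbtb20 knockout and 1.49 in the Nr4a1 knockout. Against the other wild type these medians were 0.98 and 0.17, so neither has a settled size, and the first changes sign.

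Psmb8 and Psmb9 are neighbours in the MHC region. In RefSeq's annotation of GRCm38.p6 their starts lie 10863 bases apart, and each gene was high on a different knockout array. Of 11 genes of MHC class I presentation, the circZbtb20 knockout had 2 higher and 4 lower, beside 27.3% and 19.4% of all genes past the filter. In the Nr4a1 knockout 1 was higher and 4 were lower, beside 31.9% and 20.8% of all genes past the filter. Tap1, a subunit of the peptide transporter, stood at 10.59 in the circZbtb20 knockout and 9.47 in its wild type, and at 8.76 in the Nr4a1 knockout and 10.32 in its wild type. Tap2, the other subunit, was the gene called higher in the Nr4a1 knockout, at 7.46 against 6.01 in its wild type. H2-K1, a class I heavy chain, stood at 12.94 in the Nr4a1 knockout and 18.81 in its wild type. H2-D1, another heavy chain, differed by -2.90 in that comparison and by 1.41 in the circZbtb20 knockout. B2m, the light chain, differed by -2.88 in the Nr4a1 knockout, a bound because its wild type value was at the ceiling. Calr, a chaperone of class I loading, differed by -2.67 in the circZbtb20 knockout, Tapbp by -2.36, Pdia3 by -2.25 and Canx by -1.75.

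Of 10 regulators linked to the immunoproteasome genes, the circZbtb20 knockout had 4 higher and 4 lower, and the Nr4a1 knockout 1 higher and 6 lower. The shares of all genes past the filter are those just given. Irf1, the interferon-induced activator of these genes, stood at 11.18 in the circZbtb20 knockout and 13.83 in its wild type, and at 11.09 in the Nr4a1 knockout and 13.71 in its wild type. It was thus lower in both knockouts, with differences of -2.65 and -2.62. Ifng, the cytokine that induces the immunoproteasome, stood at 18.25 and 8.37 in the circZbtb20 knockout and its wild type. Rela, an NF-kB subunit, differed by -3.97 in the circZbtb20 knockout, and Socs1, a brake on interferon signalling, by -2.15. In the Nr4a1 knockout Socs1 was higher by 3.02, while Ifng differed by -5.41, Relb by -3.49 and Ifngr1 by -2.81.

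The tissue-restricted core subunits were low everywhere. Psma8, of the testis, stood between 2.91 and 3.31 on the 4 arrays, and Psmb11, of the cortical epithelium of the thymus, between 3.20 and 4.07. Both lay under the array median on all 4 arrays, so their differences were not read. Psmg3 was the remaining gene under the median on all 4 arrays.

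In the Nr4a1 knockout the genes of the core and of the regulatory particle were higher together. Of 48 genes 33 were called higher and 1 lower (median difference 1.88), where the rule called 31.9% of all genes past the filter higher and 20.8% lower and the median over all genes was 0.00. Of the 17 genes of the 19S particle 15 were higher and 0 lower, and their median was 2.15. Among 13 core subunits the call was higher for 10 and lower for 0, at a median of 2.0. These counts come from the array on which all 17 T cell markers and all 14 cell cycle genes were higher. A fit with limma across all genes, in which both wild types formed 1 group and their difference gave the only error, called 17 of the 48 genes higher and 1 lower at its adjusted p, where it called 11.2% of all genes. That fit sets 1 array against wild types of different lines, with 1 residual degree of freedom, so it is given as an alternative and not as support for the counts by size. In the circZbtb20 knockout the same limma fit called 0 of 48 and 0% of all genes, with 28 of the 48 and 24% of all genes at an unadjusted p under 0.05. With an intensity trend in the limma fit, chosen after seeing the data, 4 of the 48 and 1.17% of all genes passed the adjusted p in the circZbtb20 knockout, and 10 of the 48 and 9.5% of all genes in the Nr4a1 knockout.

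**Figure D2:**
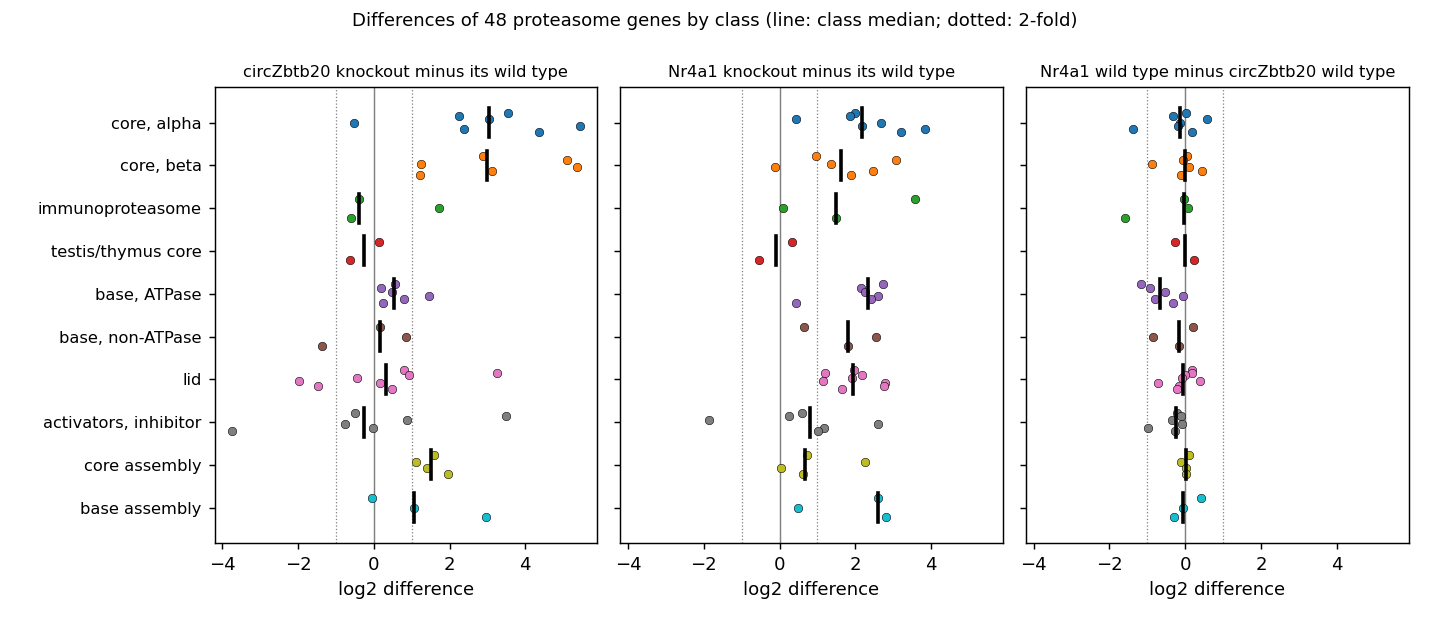
Log2 differences of 48 proteasome genes by class, with 1 point per gene, a black line at the class median and dotted lines at a 2-fold difference. In the circZbtb20 knockout the core classes have medians of 3.03 and 2.99 and the lid a median of 0.33, in the Nr4a1 knockout the core and regulatory classes have medians between 1.63 and 2.34, and between the wild types the points lie between -1.58 and 0.57.

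The ATPases of the base form the ring that unfolds the substrate. Psmc1 stood at 8.96 in the circZbtb20 knockout and 8.39 in its wild type, and at 9.94 in the Nr4a1 knockout and 7.22 in its wild type. Psmc4 stood at 8.54 and 7.08 in the circZbtb20 knockout and its wild type, and at 9.60 and 7.01 in the Nr4a1 knockout and its wild type. Psmc4 was the only one of the 6 ATPases called higher in the circZbtb20 knockout, by 1.46, while 5 of the 6 were called higher in the Nr4a1 knockout. The others of these were Psmc5 at 2.42, Psmc3 at 2.27 and Psmc2 at 2.15. Psmc6 differed by 0.25 and 0.44 in the circZbtb20 and Nr4a1 knockouts and was the steadiest of the ATPases. The wild types differed on this class by a median of -0.67, all 6 genes being lower in the Nr4a1 wild type. Against the Nr4a1 wild type 5 of the 6 ATPases were higher in the circZbtb20 knockout, where 26.4% of all genes past the filter were. With each knockout against its own wild type, these shares were 27.3% in the circZbtb20 knockout and 31.9% in the Nr4a1 knockout.

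Of the other base subunits, Psmd2, a scaffold that binds ubiquitin receptors, stood at 9.36 in the circZbtb20 knockout and 8.50 in its wild type, and at 10.18 in the Nr4a1 knockout and 7.64 in its wild type. Psmd1, the other large scaffold, stayed between 6.71 and 7.56 on the 4 arrays. Psmd4, a receptor for ubiquitin chains, differed in opposite directions. It stood at 7.39 in the circZbtb20 knockout and 8.77 in its wild type (-1.38), and at 10.41 in the Nr4a1 knockout and 8.61 in its wild type, where it was 1.80 higher.

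All 8 lid subunits were called higher in the Nr4a1 knockout, by 1.15 to 2.78, against 1 higher and 2 lower in the circZbtb20 knockout. Psmd12 stood at 11.33 in the Nr4a1 knockout and 8.55 in its wild type, and at 9.45 in the circZbtb20 knockout and 9.28 in its wild type. Psmd13 stood at 12.05 and 9.28 in the Nr4a1 knockout and its wild type, but at 7.97 and 9.44 in the circZbtb20 knockout and its wild type. Psmd11, which clamps the regulatory particle to the core, stood at 9.72 in the Nr4a1 knockout and 8.57 in its wild type, and at 6.21 in the circZbtb20 knockout and 8.19 in its wild type. Psmd11 and Psmd13 were thus lower than both wild types in the circZbtb20 knockout and higher than both in the Nr4a1 knockout.

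Among the 8 lid subunits matched by symbol, Psmd6 was the one that followed the core. It stood at 9.31 in the circZbtb20 knockout and 6.05 in its wild type (3.26), and at 7.43 in the Nr4a1 knockout and 6.22 in its wild type. Psmd7 was at 0.93 in the circZbtb20 knockout, just under the 2-fold size, and at 2.17 in the Nr4a1 knockout. Psmd3 differed by 0.79 in the circZbtb20 knockout and 1.98 in the Nr4a1 knockout. Psmd14, the deubiquitinase of the lid, differed by 0.49 in the circZbtb20 knockout and 1.64 in the Nr4a1 knockout, and Psmd8 by -0.45 and 1.92 in these knockouts.

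The gap between core and regulatory particle differed between the comparisons. The core median exceeded the 19S median by 2.54 in the circZbtb20 knockout, by -0.15 in the Nr4a1 knockout and by 0.09 between the wild types. Against the other wild type the gaps were 1.92 and 0.37. Under quantile normalization the 19S median of the circZbtb20 knockout was -0.04, so its sign depends on the scaling, while the core median was 2.58. With 1 array per genotype this gap has no test. Of the 13 core subunits 10 had their highest value of the 4 arrays in the circZbtb20 knockout, and of the 17 subunits of the 19S particle 15 had it in the Nr4a1 knockout.

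Alternative activators bind the ends of the core in place of the 19S particle. Psme1 and Psme2 encode the subunits of the interferon-inducible activator PA28, and their starts lie 12609 bases apart in the same annotation. Psme1 stood at 15.33 in the circZbtb20 knockout and 15.83 in its wild type, and at 16.21 in the Nr4a1 knockout and 15.61 in its wild type. Psme2 stood at 14.04 in the circZbtb20 knockout and 10.55 in its wild type, and at 10.70 in the Nr4a1 knockout and 10.45 in its wild type. Psme1 was therefore nearly level over the 4 arrays, and Psme2 was 3.49 higher in the circZbtb20 knockout alone by the size rule. Psme2b, a near-identical copy of Psme2 whose signal may not be separate from it, stood at 10.99 in the circZbtb20 knockout and 10.11 in its wild type, and at 7.90 in the Nr4a1 knockout and 9.76 in its wild type. Its -1.86 made it the only gene of the 48 called lower in the Nr4a1 knockout.

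Psme3, the nuclear activator of the same family, stood at 13.23 in the Nr4a1 knockout and 10.64 in its wild type, and at 9.98 in the circZbtb20 knockout and 10.73 in its wild type. Psme4, the large activator PA200, was at 1.18 in the Nr4a1 knockout but at 0.20 against the other wild type. Psmf1, which encodes the core-binding protein PI31, named as an inhibitor, had the lowest difference of all 48 genes in the circZbtb20 knockout. It stood at 6.73 in the circZbtb20 knockout and 10.48 in its wild type, and at 11.23 in the Nr4a1 knockout and 10.22 in its wild type. Its value in the circZbtb20 knockout was thus the lowest of the 4, and its 1.01 in the Nr4a1 knockout lay at the edge of the 2-fold size, with 0.75 against the other wild type.

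**Figure D3:**
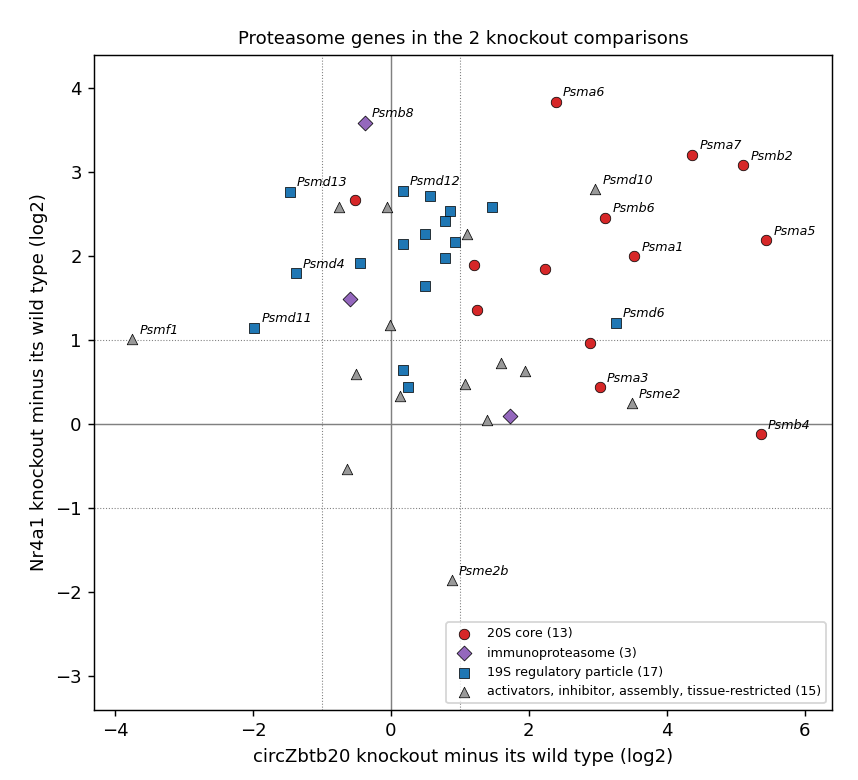
Log2 differences of 48 proteasome genes in the circZbtb20 knockout (horizontal) and in the Nr4a1 knockout (vertical), each minus its own wild type, with dotted lines at 2-fold. Of 13 genes higher in both, at the upper right, 9 are core subunits, while Psmb4 lies far right at -0.12 on the vertical axis and Psmd4, Psmd11, Psmd13 and Psmf1 lie beyond 2-fold to the upper left.

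Assembly factors build the core and the base and are absent from the finished particle. Of 7 measured, the circZbtb20 knockout had 5 higher and 0 lower (median 1.40), beside 27.3% and 19.4% of all genes past the filter. For the Nr4a1 knockout 3 were higher and 0 lower (median 0.73), beside 31.9% and 20.8% of all genes past the filter. Of the chaperones of the alpha ring, Psmg1 was higher by 1.60 in the circZbtb20 knockout and Psmg2 by 1.11, while Psmg4, of another chaperone pair, was higher by 1.95 from a value under the array median in its wild type. Psmg3, at 1.40, did not count because its values of 4.28 and 2.88 lay under the array medians. Psmg2 was also higher in the Nr4a1 knockout, at 8.36 against 6.09.

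The base chaperone Psmd10, also called gankyrin, stood at 8.35 in the circZbtb20 knockout and 5.39 in its wild type, and at 7.89 in the Nr4a1 knockout and 5.09 in its wild type. Psmd5, another base chaperone, stood at 6.81 in the Nr4a1 knockout and 4.22 in its wild type, and at 3.74 and 3.80 in the circZbtb20 knockout and its wild type. Psmd10 was thus high in both knockouts and Psmd5 above the array median in the Nr4a1 knockout alone. Psmd9 was higher by 1.07 in the circZbtb20 knockout and at 0.48 in the Nr4a1 knockout. The 2 genes set aside at the start were called higher in both knockouts, Psmc3ip by 1.65 in the circZbtb20 knockout and 1.89 in the Nr4a1 knockout, and Psme3ip1 by 1.77 and 1.64 in these knockouts.

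Set side by side, 13 of the 48 genes were called higher in both knockouts, each against its own wild type, where 10.1% of genes past the filter in both were. Of the 13, 9 were core subunits, and the others were Psmc4, Psmd6, Psmd10 and Psmg2. Another 8 were called higher in the circZbtb20 knockout and not called in the Nr4a1 knockout, where 11.8% of genes past the filter in either were. The other way round there were 16, where 16.1% of those genes were. Psmd4, Psmd11, Psmd13 and Psmf1 were lower in the circZbtb20 knockout and higher in the Nr4a1 knockout, as were 5.72% of genes past the filter in both. Between the wild types 3 of the 48 genes were called, namely Psmb10, Psma6 and Psmc1, all lower in the Nr4a1 wild type. The rule called 15.2% of all genes past the filter there, in either direction. Against both wild types at once, the circZbtb20 knockout had 21 higher and 4 lower. Of genes past the filter against both, 22.3% were higher and 14.4% lower there. The Nr4a1 knockout had 29 higher and 1 lower, where 28.4% of such genes were higher and 15.7% lower.

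Of 19 partners of the proteasome outside the 48 genes, the circZbtb20 knockout had 5 higher and 4 lower (median 0.42). These counts lie near the 27.3% and 19.4% of all genes past the filter. In the Nr4a1 knockout 6 were higher and 1 was lower (median 0.12), beside 31.9% and 20.8% of all genes past the filter. Pomp, the chaperone that completes the core and is degraded by it, stood at 10.52 in the circZbtb20 knockout and 6.84 in its wild type, and at 8.65 in the Nr4a1 knockout and 6.95 in its wild type. Pomp was thus higher in both, as were most core subunits. Ecpas, a proteasome adaptor and scaffold, differed by -2.98 in the circZbtb20 knockout, and Ube3c, a ubiquitin ligase that binds the proteasome, by -2.78. Ufd1, a cofactor of the segregase VCP, was higher by 2.71. Ube3c was instead higher by 2.52 in the Nr4a1 knockout, as were Uchl5, a deubiquitinase of the 19S particle, by 2.25 and Nploc4, another VCP cofactor, by 1.98, while Zfand5, a proteasome activator, differed by -3.93. Outside the rule for naming and chosen after their values were seen, Sem1, the smallest lid subunit, was higher by 2.47 in the circZbtb20 knockout and Nfe2l1, the transcription factor that raises proteasome genes when proteolysis is blocked, by 2.39, at 13.65 against 11.26. In the Nr4a1 knockout, where 33 of the 48 genes were called higher, Nfe2l1 differed by -0.97 and Sem1 by -0.14. The part of Nfe2l1 in the proteasome values of either knockout was not tested.

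**Figure D4:**
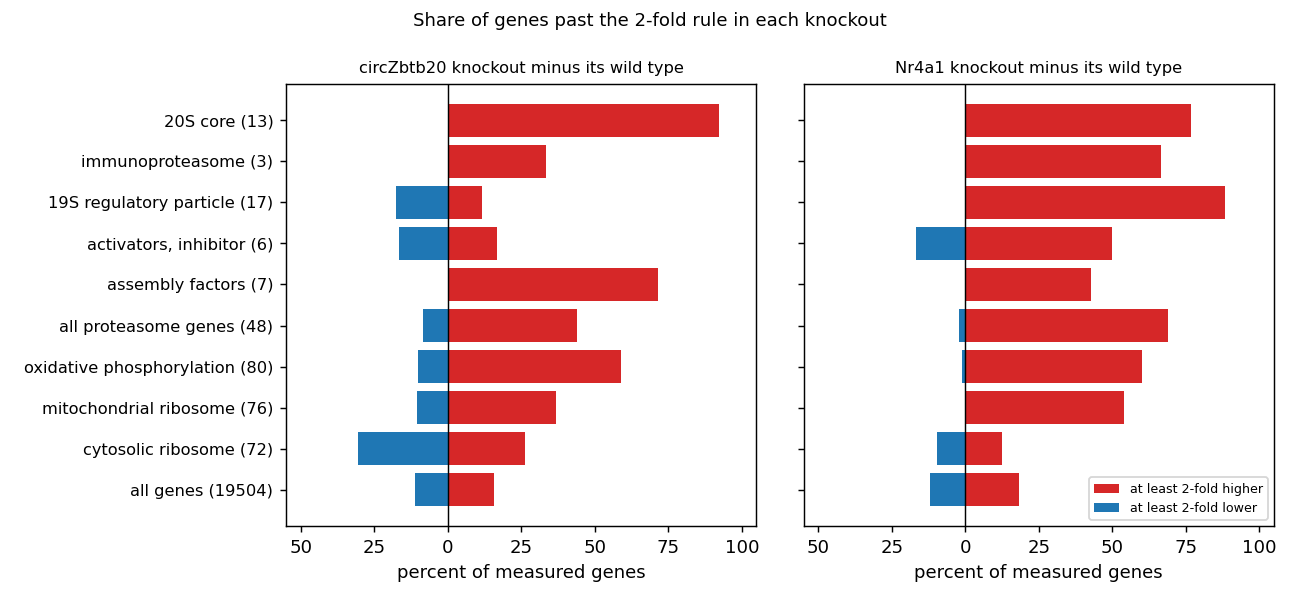
Percent of measured genes called at least 2-fold higher (red, to the right) or lower (blue, to the left) in each knockout against its own wild type, with the number of measured genes in brackets. The 20S core reaches 92.3% higher in the circZbtb20 knockout and the 19S particle 88.2% in the Nr4a1 knockout, against 15.6% and 18.3% of all 19504 genes, low ones included.

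Other large cellular machines were read the same way, as a description of the arrays. Genes of oxidative phosphorylation had 47 of 80 higher and 8 lower in the circZbtb20 knockout (median 1.30), and 48 higher and 1 lower in the Nr4a1 knockout (median 1.24). Mitochondrial ribosomal proteins had 28 of 76 higher and 8 lower in the circZbtb20 knockout (median 0.36), and 41 higher and 0 lower in the Nr4a1 knockout (median 1.13). Cytosolic ribosomal proteins had medians of 0.04 and 0.00, with 19 of 72 higher and 22 lower in the circZbtb20 knockout. Over all genes past the filter the call was likewise more often higher than lower, at 27.3% against 19.4% in the circZbtb20 knockout and 31.9% against 20.8% in the Nr4a1 knockout. The difference between the sets was not tested.

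The promoters of the core and regulatory genes were searched for short motifs, since most members of each particle were higher in at least 1 knockout. Windows of 250 bases before the start were at hand for 40 of the 48 genes, 10 of the core and 14 of the 19S particle, from RefSeq's table for GRCm38.p6. The shares of all genes below are over the 27025 genes with a window, whether measured on the arrays or not. The core site of ETS factors, CCGGAAG on either strand, was found in 8 of 14 genes of the 19S particle and in 1 of 10 core genes, Psma6, where 7.83% of all genes with a window held it. The CCAAT box was found in 6 of 10 core genes and 4 of 14 genes of the 19S particle, where 37.5% of all genes held it. The antioxidant response element core, TGACNNNGC, was found in 4 of the 40 genes and in 11.5% of all genes. The GC box GGGCGG was found in 22 of the 40 and in 35.4% of all genes, and a general NF-kB site in 10 of the 40 and 19.7%. The E-box CACGTG was found in 4 of the 40 and 6.86% of all genes, the gamma-activated site TTCNNNGAA in 2 of the 40, Psmb8 and Psmg1, and 8.13%, and a general interferon-stimulated response element in 3 of the 40 and 3.46%. All 8 motifs were searched on both strands, matches of different motifs may overlap, and a match is a description of the letters and not of binding.

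Printed here, as examples of each motif, are 2 core promoters with a CCAAT box and 2 lid promoters with an ETS site. Each window runs 5′ to 3′ on the gene's strand and ends just before the start, and capitals mark the CCAAT box (CCAAT or ATTGG) or the ETS site (CCGGAAG or CTTCCGG). Psma7 lies on the minus strand at chr2:180042465-180042714, Psma1 on the minus strand at chr7:114276117-114276366, Psmd11 on the plus strand at chr11:80428365-80428614 and Psmd12 on the plus strand at chr11:107479278-107479527.
Psma7: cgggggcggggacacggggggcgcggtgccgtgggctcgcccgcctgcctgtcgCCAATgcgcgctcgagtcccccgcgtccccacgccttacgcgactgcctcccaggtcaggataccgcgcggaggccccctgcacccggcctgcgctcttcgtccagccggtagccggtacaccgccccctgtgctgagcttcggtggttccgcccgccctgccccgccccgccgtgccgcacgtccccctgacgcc
Psma1: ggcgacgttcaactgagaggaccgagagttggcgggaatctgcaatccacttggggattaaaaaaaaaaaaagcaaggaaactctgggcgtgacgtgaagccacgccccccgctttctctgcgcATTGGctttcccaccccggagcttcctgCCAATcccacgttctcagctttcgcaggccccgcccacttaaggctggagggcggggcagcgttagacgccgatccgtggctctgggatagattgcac
Psmd11: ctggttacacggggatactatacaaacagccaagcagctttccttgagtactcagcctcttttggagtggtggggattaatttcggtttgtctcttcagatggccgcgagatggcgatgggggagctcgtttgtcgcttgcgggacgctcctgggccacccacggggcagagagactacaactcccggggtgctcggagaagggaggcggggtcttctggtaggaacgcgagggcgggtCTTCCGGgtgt
Psmd12: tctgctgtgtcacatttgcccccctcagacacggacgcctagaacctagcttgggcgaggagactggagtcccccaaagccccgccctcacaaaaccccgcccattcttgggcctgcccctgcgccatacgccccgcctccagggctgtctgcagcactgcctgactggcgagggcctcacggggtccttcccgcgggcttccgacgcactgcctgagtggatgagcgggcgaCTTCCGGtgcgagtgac
Psma7 and Psma1 were higher by 4.37 and 3.53 in the circZbtb20 knockout and by 3.21 and 2.0 in the Nr4a1 knockout. Psmd11 and Psmd12 were at -1.98 and 0.17 in the circZbtb20 knockout and higher by 1.15 and 2.78 in the Nr4a1 knockout. The remaining lid gene with an ETS site, Psmd6, was higher by 3.26 in the circZbtb20 knockout and by 1.21 in the Nr4a1 knockout. The core gene Psma6, which held both motifs, was higher by 2.39 and 3.84 in these knockouts. Psmd11, Psmd12, Psmd6 and Psma6 thus went in different directions in the circZbtb20 knockout and were all higher in the Nr4a1 knockout. Of the other genes with an ETS site, Psmc6 and Psmg1 differed by 0.44 and 0.73 in the Nr4a1 knockout and were not called. Psmc1, Psmc2, Psmd2, Psmd4, Psme3 and Psme4 were called higher there. So were all 8 lid subunits matched by symbol, whether or not the site was found. The part of either motif in these values was not tested. Psma5, which had the highest difference of the core in the circZbtb20 knockout, was not among the genes found with either motif. Windows were at hand for 10 of the 13 core genes. Whether Psma5 was among them is not given here, so no reading of its promoter is made.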

How the data were processed

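One table of 22205 rows and 4 columns, 1 array per genotype, was analysed. Per the labels, total RNA of sorted cells was extracted with Trizol. The authors made the deposited log2 values with Affymetrix Power Tools and RMA, per the submitters' processing notes. Their versions, settings and genome build are not given there. The 4 columns do not share 1 distribution, their medians lying between 4.34 and 4.51, so scaling between the arrays was tried as an alternative. Detection calls were not used here.

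Rows were named through the platform's probe table, in which 19571 rows had 1 gene symbol, 2634 none and 0 several. Where a gene had more rows than 1, as 55 did, the row of highest mean stood for it, and no proteasome gene was among them. All 48 symbols were found in the RefSeq gene table, used for names only. Differences, counts and medians were computed with Python 3.11.15, and limma 3.58.1 in R 4.3.3 gave the alternative normalizations and the alternative fit. On simulated data with known changes the size rule returned the known calls, an outcome fixed in advance because that simulation had no noise. The limma fit returned the known sizes but called none of the changed genes at its adjusted p. Far fewer genes were changed there than the size rule called in these data, so the simulation cannot decide what limma would miss here. A lack of limma calls was not read as a lack of difference. In the limma fit the 2 wild types were 1 group and the only source of error.

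The members, classes, gene lists and motifs were chosen with earlier results of these data known. Named, most with all values, were the immunoproteasome subunits with their counterparts, the PA28 genes, and up to 8 members called at each end of each knockout comparison. Of each class up to 3 called members were named, of each pathway list up to 4, and of marker lists the defining genes. Alternatives were the other wild type, the mean of both, other normalizations, filters and fold sizes, the mean of all rows and limma.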

Additional observations from a re-analysis of the deposited data

How the results depend on the processing

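Of 75 values under alternatives, 44 stayed close to the value as given (counts within 1.5 times, medians within 0.138, the median SD between the wild types) and 31 did not. At 4-fold, the circZbtb20 knockout had 13 genes higher and 1 lower, and the Nr4a1 knockout had 21 higher and 0 lower. A stricter size calls fewer genes, and 0 were called between the wild types. The share of all genes at 4-fold is not given here, so these counts have no background beside them. The planned limma fit gave 0 higher and 0 lower in the circZbtb20 knockout and 17 higher in the Nr4a1 knockout. With an intensity trend, chosen after seeing the data, limma gave 4 and 0 in the circZbtb20 knockout and 10 and 0 in the Nr4a1 knockout. The median of all 48 genes in the circZbtb20 knockout was 1.22 against the other wild type, 1.13 against the mean of both, 0.45 under quantile and 0.42 under cyclic loess normalization. In the Nr4a1 knockout these medians were 1.54, 1.70, 1.60 and 1.42, and 2.04 with arrays centred on their medians. The immunoproteasome median in the circZbtb20 knockout was 0.98, 0.19, -0.87 and -0.86 under the same 4 settings, and in the Nr4a1 knockout 0.17, 0.70, 1.19 and 0.95, and 1.66 with centring. Quantile normalization called 5 genes between the wild types, with no share of all genes given at that setting. Centring moved the median of all genes to 0.14 in the circZbtb20 and 0.17 in the Nr4a1 comparison, where it was 0.04 and 0.00 as deposited. The core median stayed between 2.55 and 3.13 in the circZbtb20 knockout under these scalings, and the 19S median of the Nr4a1 knockout between 1.55 and 2.32. The causes were not tested. No paired analysis was possible because the labels give no replicate numbers and each group has 1 array. Signal over background limits Psma8, Psmb11 and Psmg3.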

Other observations

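Genes that make, activate and attach ubiquitin lie upstream of the proteasome. Of 16 measured, the circZbtb20 knockout had 5 higher and 2 lower and a median difference of 0.46. The Nr4a1 knockout had 7 higher and 1 lower and a median difference of 0.94. Over all genes these medians were 0.04 and 0.00. Of all genes past the filter, the circZbtb20 knockout had 27.3% higher and 19.4% lower, and the Nr4a1 knockout 31.9% and 20.8%. The counts of the circZbtb20 knockout lie near these shares. Rbx1, the RING subunit of cullin ligases, stood at 13.01 in the circZbtb20 knockout and 6.26 in its wild type, and at 8.17 in the Nr4a1 knockout and 6.19 in its wild type. Ube2k, a conjugating enzyme that builds ubiquitin chains, was higher by 3.74 in the circZbtb20 knockout, Cul1, a cullin scaffold, by 1.84, and Ube2d2a, a conjugating enzyme, was lower by -2.25. Ube2c, the conjugating enzyme of the anaphase-promoting complex, stood at 12.48 in the Nr4a1 knockout and 4.56 in its wild type, on the array where all 14 cell cycle genes were higher. Ube2r2 was higher by 2.78 there, Skp1, an adaptor of cullin ligases, by 2.11 and Ube2d1 by 2.07. The part of cell content in these values was not tested.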
